A study of Canis lupus familiaris with 34 samples.

Results

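The 12 arrays compared here come from canine lymphomas of 2 kinds, 6 labelled diffuse large B cell lymphoma (DLBCL) and 6 labelled T-zone lymphoma (TZL), out of 34 arrays in the series. They were taken by their tumor type label alone, to ask which genes differ between a B-cell and a T-cell lymphoma of the same breed. The single marginal zone lymphoma array and the leukemias were left out. All 12 dogs were Golden Retrievers, each dog gave 1 array, and the RNA came from primary tumor cells with no treatment labelled. The labels give the tumor origin as B cell for DLBCL and T cell for TZL. The DLBCL arrays were from the dogs Benson, Cooper, Sally, Kaycee, Snuggles and Chieftain, 4 males and 2 females in the study's list of dogs. The TZL arrays were from Newman, Niki, Rose, Shilo, Thunder and Fire, 3 males and 3 females. Ages were not used here. The sources used here do not say whether tumor cells were sorted, so each array may hold any cell that came with the tumor, and in such samples fewer cells of a type and less RNA per cell cannot be told apart.

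Diffuse large B-cell lymphoma is a tumor of large, dividing B cells that replaces the structure of the lymph node. B cells are marked by the surface protein CD20, the product of MS4A1, and by CD79A and CD79B, which carry the signal of the membrane antibody. T-zone lymphoma is a slow-growing tumor of T cells that spreads between the fading follicles of the node, is often seen in Golden Retrievers, and is known in dogs for cells that lack CD45 on their surface. T cells read antigen through the T-cell receptor, whose signal passes through the CD3 chains and the kinase LCK.

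Expression was measured on Affymetrix Canine_2 arrays. Each gene has at least 1 probe set, a group of short probes summarized as 1 value, and RMA makes that value a log2 signal after removing background and bringing the arrays to the same distribution. A difference of 1 on this scale is a doubling of signal, and every difference below is DLBCL minus TZL unless a sentence names the higher group. Of 42860 probe sets that are not controls, 21763 lay above the median of their array on at least 6 of the 12 arrays and were tested with limma, which fits a linear model to each and moderates its variance by that of all the others. A probe set passed at a Benjamini-Hochberg adjusted p under 0.05 over all those tested. Where a gene has more than 1 probe set, its values are those of the probe set with the highest average signal on the 12 arrays. The number of arrays limits the precision of each value.

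The arrays of a kind resembled each other more than those of the other kind. The Pearson correlation between arrays averaged 0.955 over the 15 pairs within DLBCL (0.936 to 0.973), 0.957 over the 15 pairs within TZL (0.918 to 0.982) and 0.927 over the 36 pairs between them (0.888 to 0.963), across probe sets that are not independent. Chieftain was nearest to the other kind, with a mean correlation of 0.949 to the other DLBCL arrays and 0.940 to the TZL arrays. The 3′ minus 5′ signal of the actin control, a sign of RNA quality, was 0.11 to 1.97 in DLBCL and -0.70 to 1.89 in TZL, and was highest on Chieftain, Thunder and Fire (1.97, 1.89 and 1.53). Newman, Niki, Rose and Shilo (-0.60, -0.37, -0.70 and -0.41) lay below every DLBCL array, so this signal was partly aligned with the kind of tumor. Calls of named genes that were lost or gained without these 3 arrays are given beside the gene.

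Of the 21763 probe sets tested, 1989 passed with higher signal in DLBCL (9.14%) and 2029 with higher signal in TZL (9.32%). At an adjusted p of 0.001 the split was 143 against 410. Counted by gene, with 1 probe set for each of the 9284 genes tested, 940 were higher in DLBCL (10.1%) and 885 higher in TZL (9.53%), and the values of the 2 groups did not overlap for 822 (8.85%). These shares are the background for the gene lists below. A gene below the array median on all 6 arrays of 1 kind was tested only if all 6 of the other kind lay above it. For such genes the filter itself nearly fixes that the groups do not overlap. The number of probe sets passing, 4018 in all, was 4440 without Chieftain. The median difference over all genes tested was 0.04. The lists name 694 genes, of which 567 have a probe set assigned to them alone and 470 were tested. CR2, IGHM, IRF4, ZAP70, BCL11B, CXCR4, MKI67, CCNB1 and CDKN2A are among the 127 without one and were not analysed here. Where 0 members of a list passed in a direction, 0 to 2 had an unadjusted limma p under 0.05 in it.

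**Figure D1:**
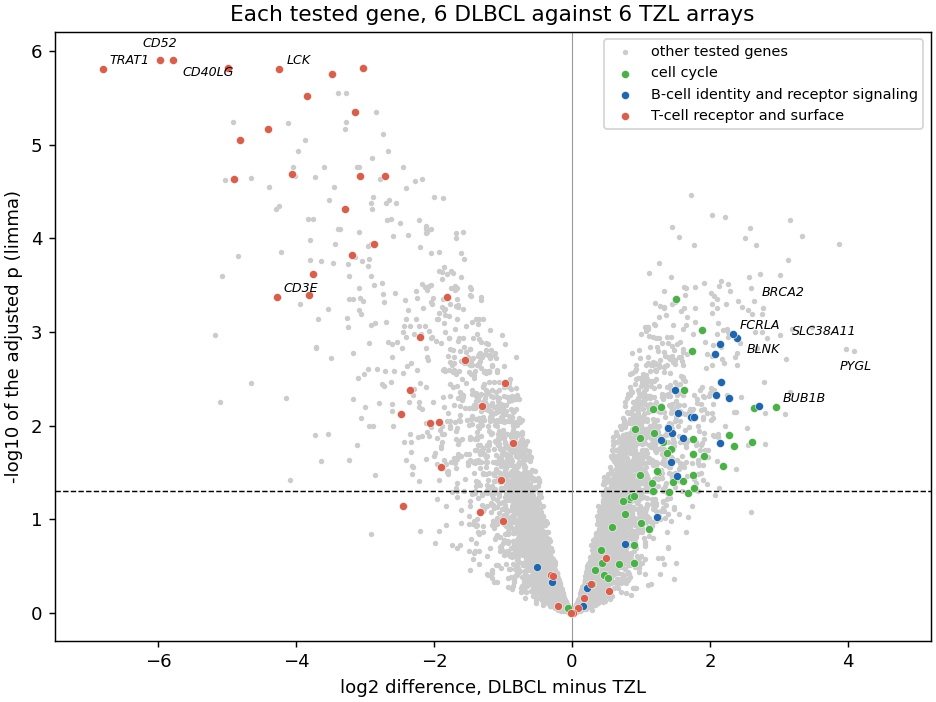
Log2 difference between the 6 DLBCL and 6 TZL arrays (x axis) against the negative log10 of the limma adjusted p (y axis), 1 point for each of the 9284 tested genes; the dashed line is an adjusted p of 0.05. T-cell genes lie far out on the TZL side, to -6.81 for TRAT1, while B-cell genes reach only 2.71 and cell cycle genes 2.95 on the DLBCL side.

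Of the 3 markers taken to check the labels, MS4A1 was higher in DLBCL and CD3E in TZL, while CD79A did not separate the kinds. MS4A1 was 10.70, 12.01 and 12.40 in DLBCL (lowest, median and highest of 6 arrays) and 7.67, 10.19 and 11 in TZL, 4.44-fold higher in DLBCL (2.15, SE 0.55, adjusted p = 0.0152). The groups overlapped, because Sally among the DLBCL arrays (10.70) lay below Rose and Thunder among the TZL arrays (11 and 10.77). CD79A gave 8.19, 8.73 and 10.05 in DLBCL and 7.60, 9.0 and 9.43 in TZL and did not pass (0.16, SE 0.37, adjusted p = 0.84). CD79B, its partner, was 10.09, 10.34 and 11.91 against 8.36, 9.12 and 11.05 and also did not pass (1.24, adjusted p = 0.0934), although it did without Newman (1.56, adjusted p = 0.0288) and in a fit of all 34 arrays. The latter fit leaves the difference at 1.24 and takes its variance from all groups of arrays, the cultured cells included. Its calls therefore depend on the spread in other tumors and cells. On the 18 arrays of cultured hemangiosarcoma, hematoma and osteosarcoma cells, which should hold no B cells, MS4A1 lay between 3.72 and 4.87, CD79A between 3.89 and 4.76 and CD79B between 3.00 and 3.96. All 6 TZL arrays were above those ranges for the 3 genes.

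Most other B-cell genes were higher in DLBCL. Of 32 listed genes of B-cell identity and receptor signaling, 27 have a probe set of their own, 25 were tested, 19 passed as higher in DLBCL (76%, against 10.1% of all genes) and 0 as higher in TZL. Their median difference was 1.54, or 1.53 with the 2 members below the filter included. FCRLA, an intracellular Fc receptor-like protein of B cells, was 11.87, 12.12 and 12.94 in DLBCL and 8.89, 9.96 and 11.18 in TZL (2.33, SE 0.38, adjusted p = 0.00105), with no overlap. The adaptor BLNK, which links the B-cell receptor to its downstream enzymes, was higher by 2.40 (adjusted p = 0.00117), the scaffold BANK1 by 2.71 (adjusted p = 0.00615) and the B-lineage transcription factor EBF1 by 2.28 (adjusted p = 0.00504). A second BLNK probe set and 2 of 3 further FCRLA probe sets, all of lower signal, did not pass. PAX5, the factor that fixes B-cell identity, lay below the filter at 5.31, 5.54 and 6.13 and 4.85, 5.2 and 5.68. The mean over the 25 genes was 9.41 to 9.78 on the DLBCL arrays and 7.06 to 9.24 on the TZL arrays, with Newman highest and Fire lowest among the latter.

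**Figure D2:**
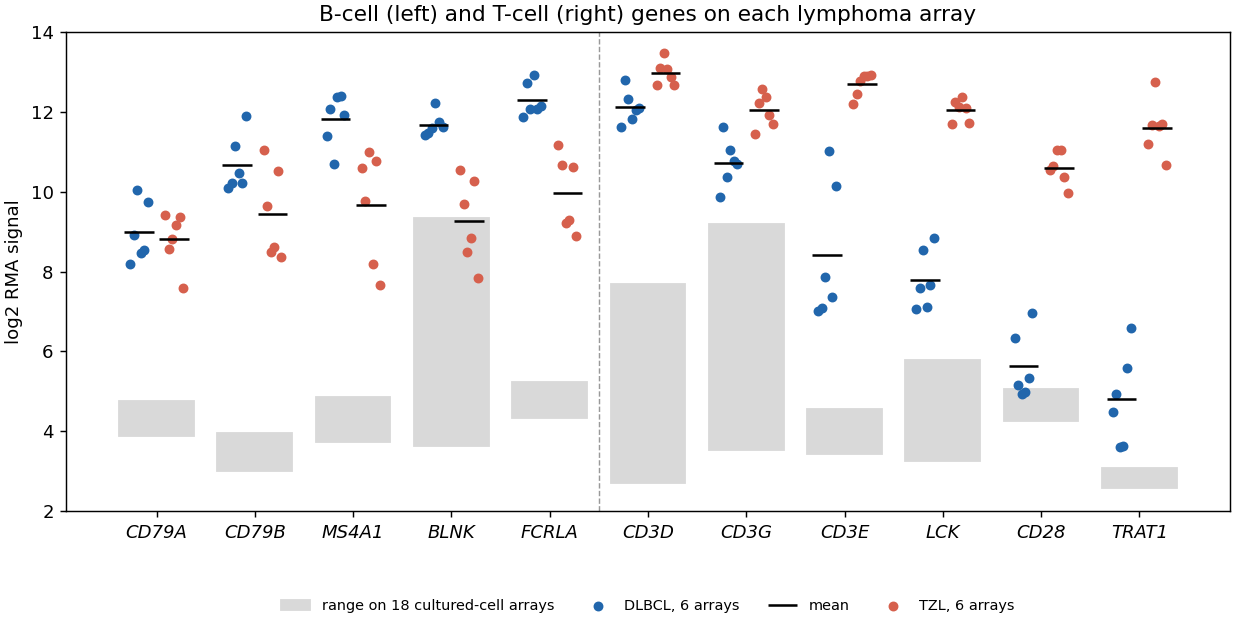
Log2 RMA signal (y axis) of 5 B-cell genes and 6 T-cell genes (x axis) on each of 6 DLBCL and 6 TZL arrays, with group means as black lines and the range on 18 cultured-cell arrays in gray. CD79A and CD3D were high in both kinds, while CD28 and TRAT1 did not overlap.

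The T-cell side gave the widest differences in the comparison. CD3E, the marker of the T-cell receptor complex chosen for TZL, was 7.02, 7.62 and 11.02 in DLBCL and 12.20, 12.85 and 12.94 in TZL, 19.5-fold higher in TZL (-4.28, SE 0.62, adjusted p = 0.000423). The groups did not overlap, and an exact two-sided permutation test over all groupings of the 12 arrays gave p = 0.00216, the smallest it can give. Kaycee (11.02) and Chieftain (10.14) stood above the other 4 DLBCL arrays (up to 7.86). The other chains gave smaller differences. CD3D was 11.62, 12.08 and 12.80 in DLBCL and 12.67, 12.98 and 13.48 in TZL (-0.86, adjusted p = 0.0153). CD3G differed by -1.31 (adjusted p = 0.0061). Both had strong signal in the B-cell tumors, where the cultured cells read 2.69 to 7.69 and 3.52 to 9.19. Neither CD3D nor CD3G passed in a fit of all 34 arrays (adjusted p = 0.348 and 0.287), where the differences were the same and the variance came from all groups. A second CD3D probe set passed over the 12 arrays (-1.05, adjusted p = 0.00831). CD247, the zeta chain, was 5.56, 6.25 and 7.08 against 9.53, 10.13 and 10.96 (-3.84, adjusted p = 3.05e-06).

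Of 30 listed genes of the T-cell receptor complex and its signaling, 22 have a probe set, 20 were tested and 17 passed as higher in TZL (85%, against 9.53% of all genes), 11 of them with no overlap between groups. The median difference was -2.27. TRAT1, which stabilizes the receptor at the surface, had the largest difference of all genes tested, 3.60, 4.70 and 6.58 in DLBCL and 10.67, 11.66 and 12.75 in TZL (-6.81, SE 0.48, 112-fold, adjusted p = 1.56e-06). LCK, the kinase that starts the signal, was 7.06, 7.63 and 8.85 against 11.69, 12.12 and 12.38 (-4.25, SE 0.30). PRKCQ, a protein kinase of the synapse, differed by -4.90, the inhibitory adaptor SIT1 by -3.29 and the scaffold LAT by -3.08. Each of these passed with no overlap. On Kaycee, where CD3E was highest among DLBCL arrays, TRAT1 read 3.63, LCK 7.11 and CD28 4.99, each within the range of the other DLBCL arrays. On Chieftain the same genes read 6.58, 8.85 and 6.97, each the highest of the DLBCL arrays.

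Genes of the T-cell surface and of costimulation moved in the same direction. Of 30 listed, 29 have a probe set, 26 were tested, 16 passed as higher in TZL (61.5%) and 0 as higher in DLBCL, with a median of -2.47. CD52, a small glycosylated surface protein of lymphocytes, was 4.77, 5.56 and 7.39 in DLBCL and 11.38, 11.75 and 12.37 in TZL (-5.97, SE 0.38, adjusted p = 1.25e-06). CD40LG, the ligand by which helper T cells act on B cells, was 4.40, 4.8 and 6.08 against 9.81, 10.54 and 11.75 (-5.78, SE 0.36). The costimulatory receptor CD28 differed by -4.99, CD27 by -4.81, the interleukin 7 receptor IL7R by -4.40 and CD7 by -4.05. Among the pan-T antigens used in typing, CD5 differed by -3.19 and CD2 by -1.81, and THY1, found on canine T cells and on fibroblasts, by -1.93. Rose was the lowest TZL array for CD5 (8.51, with the other 5 between 10.53 and 10.94) and for CD27 (10.24). Of the 59 tested genes of the 3 T-cell lists together, 39 passed as higher in TZL and 27 did not overlap. Over all genes tested these shares were 9.53% and 8.85%. The count without overlap rests in part on the filter, as given above. Chieftain, which also had the highest actin 3′ minus 5′ signal, was the highest DLBCL array for 25 of the 59. How often it was highest over all genes was not counted. The mean over the 26 surface genes was 6.44 to 7.30 in DLBCL, with Chieftain highest, and 9.01 to 9.38 in TZL.

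PTPRC, which encodes CD45, was 9.23, 10.63 and 11.96 in DLBCL and 8.74, 10.19 and 11.91 in TZL and did not pass (0.54, SE 0.56, adjusted p = 0.582). Shilo (8.77) and Fire (8.74) were the lowest of the 12 arrays, and Rose (11.91) was the highest of the TZL arrays. The cultured cells read 2.84 to 3.60. The other 2 tested probe sets of the gene did not pass either. The arrays measure RNA of all cells in the sample, and the protein at the cell surface was not measured.

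The TZL arrays differed from each other in the coreceptors. CD4 was high on Rose (10.73), Newman (9.88) and Fire (8.57), and CD8A on Shilo (11.57), Thunder (10.32) and Newman (8.51). Niki read 7.48 for CD4 and 5.46 for CD8A, within the DLBCL range of both. On the second probe sets of these genes, Niki lay above all 6 DLBCL arrays, at 6.73 against 6.42 at most for CD4 and 4.24 against 3.28 at most for CD8A. That CD8A probe set lay below the filter, and 4.24 is under the median of Niki's array (5.65). The DLBCL arrays read 6.98, 7.25 and 7.73 for CD4 and 4.64, 5.26 and 6.06 for CD8A. Across groups CD4 did not pass (-1.33, adjusted p = 0.0833), although its second probe set did (-1.95, adjusted p = 0.0292), and CD8A lay below the filter (-2.51, exact permutation p = 0.0476).

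**Figure D3:**
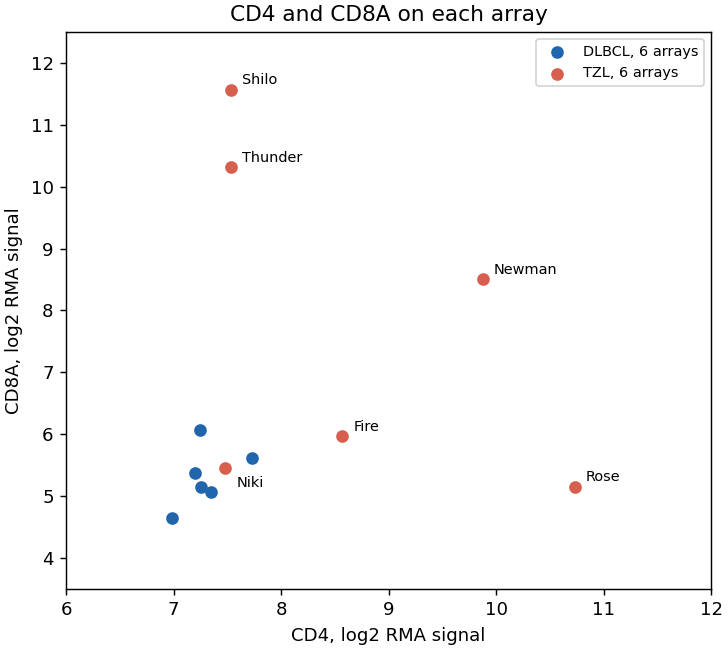
Log2 RMA signal of CD4 (x axis) and CD8A (y axis), 1 point for each of 6 DLBCL and 6 TZL arrays, the latter named by dog. Shilo and Thunder were high in CD8A, Rose in CD4 and Newman in both, while Niki lay among the DLBCL arrays on these probe sets.

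Among 28 listed T-cell transcription factors, 19 have a probe set, 13 were tested, 6 passed as higher in TZL (46.2%) and 1 as higher in DLBCL. LEF1, a partner of beta-catenin in T-cell development, was 3.81, 4.45 and 7.36 in DLBCL, with Chieftain highest, and 9.41, 9.75 and 10.58 in TZL (-5.03, SE 0.51, adjusted p = 2.41e-05). GATA3, the factor of helper T cells, differed by -3.07, the chromatin organizer SATB1 by -2.19 and TOX by -3.0, the last with Chieftain (7.01) inside the TZL range. FOXO1, which keeps lymphocytes quiescent, differed by -1.06 (adjusted p = 0.0119), while its 2 further tested probe sets did not pass. TCF7, a close relative of LEF1, lay below the filter at 3.69, 3.89 and 4.5 against 5.19, 6.63 and 7.53 with no overlap. ID3, an inhibitor of basic helix-loop-helix factors that B cells also use, was the member higher in DLBCL (1.39, adjusted p = 0.0151).

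Killer cell genes were measured too. Of 24 listed cytotoxic and natural killer genes, 19 have a probe set, 13 were tested, 5 passed as higher in TZL (38.5%) and 0 as higher in DLBCL. The 4 widest were SRGN, the core protein of secretory granules (-3.27), the protease CTSW (-2.86), the protease inhibitor CST7 (-2.70) and the chemokine CCL5 (-2.46). CTSW ranged from 7.31 on Shilo to 13.03 on Rose within TZL, and it did not pass on leaving out any 1 of 6 arrays (Benson, Cooper, Kaycee, Snuggles, Newman or Thunder) or on leaving out Chieftain, Thunder and Fire together. The granzymes, which trigger death in target cells, did not pass: GZMA was 4.55, 5.51 and 6.78 against 4.61, 6.43 and 7.78 and GZMB 3.90, 5.18 and 8.10 against 4.49, 6.95 and 9.08. PRF1, which forms pores, lay below the filter (4.71, 5.34 and 6.83 in TZL).

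Receptors that guide lymphocytes to and within the node gave 3 of 14 tested genes higher in TZL (21.4%) and 1 higher in DLBCL, out of 22 listed and 16 with a probe set. ITGB7, an integrin chain of gut homing, was 9.13, 9.82 and 10.53 in DLBCL and 12.31, 13.04 and 13.23 in TZL (-3.12, SE 0.30, adjusted p = 1.72e-05). The selectin ligand SELPLG differed by -2.34, and CCR7, the receptor that draws T cells to the T zone, by -1.45 (adjusted p = 0.00786). CCR6 was higher in DLBCL by 2.12 (adjusted p = 0.0133). S1PR1, needed to leave the node, did not pass (-0.91, adjusted p = 0.342).

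The germinal center is the site where B cells mutate their antibodies, and BCL6 is its master repressor. BCL6 was lower in the B-cell tumors, 5.63, 7.88 and 8.22 in DLBCL and 9.18, 9.94 and 10.64 in TZL (-2.40, SE 0.40, 5.3-fold, adjusted p = 0.00113), with no overlap and with Kaycee (5.63) lowest. The cultured cells read 9.56 to 11.53. CD38, an enzyme of activated lymphocytes and plasma cells, was also higher in TZL (-2.37, adjusted p = 0.00555), and STX7, a vesicle protein counted among germinal center genes, was higher in DLBCL (1.61, adjusted p = 0.00224). Of 21 listed germinal center genes, 18 have a probe set, 12 were tested, 1 passed as higher in DLBCL (8.33%) and 2 as higher in TZL (16.7%). EZH2, a histone methyltransferase of dividing B cells, did not pass (1.01, adjusted p = 0.0587), and on Rose it read 9.52, above all 6 DLBCL arrays. Without Rose EZH2 passed as higher in DLBCL (1.31, adjusted p = 0.00289), as it did under 5 other alternatives, the actin signal as a covariate among them.

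No tested gene of antibody-secreting cells passed as higher in DLBCL. Of 19 listed immunoglobulin and plasma cell genes, 8 have a probe set, 7 were tested, 4 passed as higher in TZL (57.1%) and 1 had an unadjusted p under 0.05 on the DLBCL side. XBP1, which drives the secretory program, was 9.20, 10.16 and 10.71 in DLBCL and 11.11, 12.13 and 12.55 in TZL (-1.89, SE 0.28, adjusted p = 0.000543). JCHAIN, which joins antibody units, differed by -2.17 (adjusted p = 0.0129) and PRDM1, the plasma cell repressor also found in T cells, by -1.54 (adjusted p = 0.02). The signal peptidase subunit SEC11C differed by -0.65 and did not pass without Cooper or without Niki. XBP1 is not particular to lymphoid cells, since the cultured cells read 11.51 to 12.30, and they also read 7.15 to 10.12 for JCHAIN. Without Chieftain, Thunder and Fire, 2 members in place of 4 passed, and JCHAIN and PRDM1 were lost. A second JCHAIN probe set did not pass (-0.80).

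Cell division genes were higher in DLBCL, with 1 TZL array apart. Of 60 listed cell cycle genes, 53 have a probe set, 51 were tested, 30 passed as higher in DLBCL (58.8%, against 10.1% of all genes) and 0 as higher in TZL, and 50 of the 51 differences were above 0, with a median of 1.19. BUB1B, a kinase of the spindle checkpoint, was 7.69, 9.27 and 10.06 in DLBCL and 4.61, 5.74 and 8.55 in TZL (2.95, SE 0.64, adjusted p = 0.00637). The centromere protein CENPF differed by 2.63, the checkpoint kinase TTK by 2.61 and the spindle motor KIF11 by 2.35. TOP2A, the topoisomerase that untangles replicated DNA, was 10.19, 11.59 and 12.41 against 7.66, 8.89 and 11.70 (2.19, adjusted p = 0.027), and CDK1, which starts mitosis, differed by 1.77 (adjusted p = 0.046). TOP2A did not pass without Cooper, Kaycee, Newman, Niki, Shilo or Fire, and CDK1 passed only in the fits that left out Sally or Rose. KIF11, TOP2A and CDK1 did not pass without Chieftain, Thunder and Fire. Over the 12 arrays a further TOP2A probe set passed (2.74, adjusted p = 0.017), as did further CDK1 probe sets (1.60 and 1.97, adjusted p = 0.0347 and 0.0489). Their calls without single arrays are not given here.

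Rose carried the cell cycle genes at the level of the B-cell tumors. The mean over the 51 genes was 8.62 to 9.68 on the DLBCL arrays and 9.38 on Rose, against 7.34 to 8.49 on the other 5 TZL arrays. Rose was the highest TZL array for 43 of the 51 genes and lay above the lowest DLBCL array for 44. How often this held over all genes was not counted, and Rose also had the lowest mean correlation to the other TZL arrays (0.943). For BUB1B it read 8.55 and for CDK1 10.05. The count of 30 became 43 without Rose, 19 without Shilo and 13 without Chieftain, Thunder and Fire, and the median over those 51 genes stayed between 1.10 and 1.44 under the alternatives tried.

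**Figure D4:**
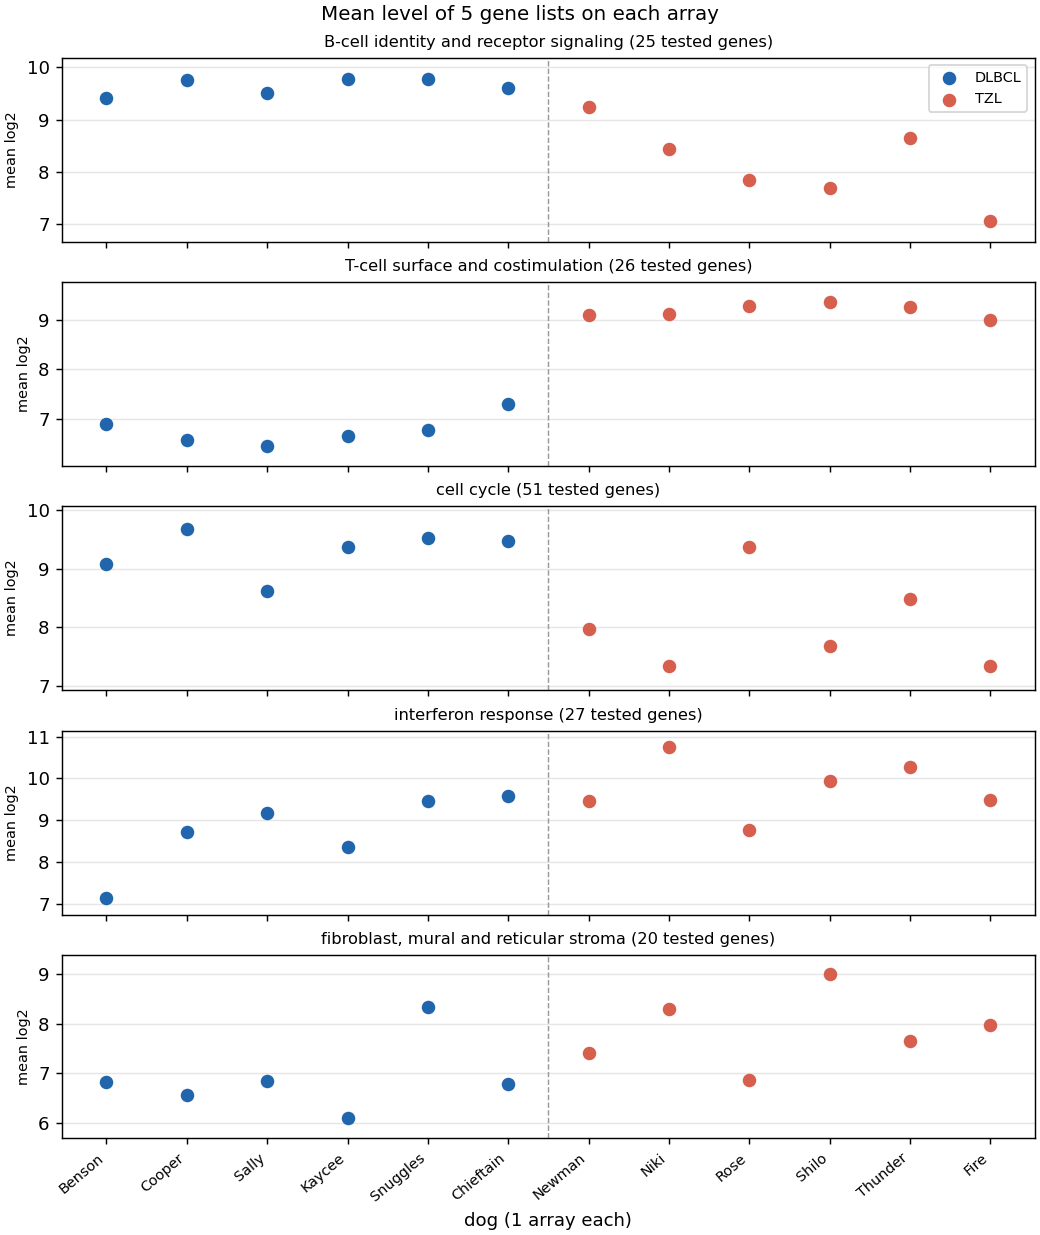
Mean log2 RMA signal (y axis) of the tested members of 5 gene lists on each array, 1 point for each dog (x axis). The T-cell surface genes lay at 6.44 to 7.30 in DLBCL and 9.01 to 9.38 in TZL, Rose sat at 9.38 for the cell cycle among DLBCL arrays at 8.62 to 9.68, and Snuggles at 8.34 for stroma above the other DLBCL arrays.

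Among inhibitors of the cycle and D cyclins, the members that passed were higher in TZL. Of 22 listed genes of this group and of related growth control, 17 have a probe set, 15 were tested, 7 passed as higher in TZL (46.7%) and 0 as higher in DLBCL. CDKN2D, an inhibitor of CDK4 and CDK6, was 7.54, 7.79 and 7.86 in DLBCL and 9.21, 10.13 and 10.42 in TZL (-2.18, SE 0.22, adjusted p = 2.35e-05). CDKN2C, of the same family, differed by -2.60, and CDKN1A, which encodes the inhibitor p21, by -1.96 (adjusted p = 0.0256), the latter not passing without Cooper, Sally, Kaycee or Shilo, or without Chieftain, Thunder and Fire. The cyclin CCND3 was 6.70, 7.84 and 8.44 against 9.23, 9.85 and 10.06 (-2.08), CCND1 differed by -1.49 and the antiproliferative BTG2 by -1.66. CCND2, CDK4 and CDKN1B did not pass (-0.71, 0.56 and -0.48), nor did a second CDKN1A probe set (-0.13). CCND2 passed as higher in TZL without Kaycee (adjusted p = 0.0335), without Chieftain (adjusted p = 0.0433), with array weights and with the actin signal as a covariate. CDK4 passed as higher in DLBCL without Rose (0.77, adjusted p = 0.0379) and with array weights, and CDKN1B as higher in TZL with array weights and in a fit of all 34 arrays. RB1, the retinoblastoma protein that holds the cycle at its start, lay below the filter, at 7.06 on Kaycee and 6.96 on Snuggles and 4.85 to 5.74 on the other 10 arrays.

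MYC, a driver of growth, was 9.67, 10.74 and 12.13 in DLBCL and 9.04, 9.70 and 10.82 in TZL and did not pass (1.05, SE 0.41, adjusted p = 0.0934). It passed without Chieftain (1.29, adjusted p = 0.0325), without Chieftain, Thunder and Fire (1.68, adjusted p = 0.0126), with array weights and in a fit of all 34 arrays. Genes of its network and of ribosome synthesis were higher in DLBCL for 12 of 23 tested members (52.2%) and higher in TZL for 1, out of 30 listed and 26 with a probe set, with a median of 0.84. NOP56, a core protein of small nucleolar particles, was 11.10, 11.95 and 12.14 against 9.83, 10.40 and 10.73 (1.49, SE 0.22, adjusted p = 0.000474). The nucleolar protein NPM1 differed by 1.4, the nucleotide kinase NME1 by 1.37 and DKC1, which modifies ribosomal RNA, by 1.33, each with no overlap.

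DNA repair and chromatin genes were higher in DLBCL for 10 of 23 tested members (43.5%) and higher in TZL for 0, out of 30 listed and 24 with a probe set. BRCA2, a recombination protein, was 8.57, 9.91 and 11.11 in DLBCL and 6.82, 7.07 and 8.29 in TZL (2.64, SE 0.39, adjusted p = 0.000469), Rose being the highest TZL array. The mismatch protein MSH6 differed by 1.39, PRKDC of end joining by 1.33 and FANCI of crosslink repair by 1.32, the last 2 passing in only 3 of the 12 fits that left out 1 array. The count fell to 5 without Cooper, to 5 without Kaycee and to 6 without Chieftain, Thunder and Fire, when PRKDC and FANCI were among those lost.

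Survival genes of the BCL2 family gave 3 of 10 tested members higher in TZL (30%) and 0 higher in DLBCL, out of 19 listed and 14 with a probe set. BCL2, which blocks mitochondrial death, was 8.06, 8.81 and 9.59 in DLBCL and 9.59, 10.21 and 10.92 in TZL (-1.44, SE 0.31, adjusted p = 0.00625). Its second tested probe set, of lower signal, did not pass. BCL2L1, its close relative, differed by -1.64 with no overlap, and BCL2A1 by -0.75 (adjusted p = 0.0434), a call that held without Cooper or Rose but not without any other array, nor without Chieftain, Thunder and Fire together. A second BCL2A1 probe set also passed over the 12 arrays (-1.07, adjusted p = 0.0109). MCL1 did not pass (-0.58, adjusted p = 0.218), and the death activator BCL2L11 lay below the filter.

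Signaling lists were mixed. Of 22 tested NF-kappaB targets, out of 28 listed and 26 with a probe set, 5 were higher in TZL (22.7%) and 1 in DLBCL. The chemokine CCL4 differed by -1.81, TNFAIP3, the A20 brake on the pathway, by -1.67 and the adhesion protein ICAM1 by -1.34, each higher in TZL. The subunit REL was 6.01, 8.12 and 9.13 in DLBCL and 4.68, 6.23 and 6.58 in TZL, and was the member higher in DLBCL (1.83, adjusted p = 0.0331). REL did not pass on leaving out any 1 of 7 arrays (Benson, Cooper, Kaycee, Snuggles, Shilo, Thunder or Fire), and without Snuggles 3 of the 22 were higher in TZL. Of 18 tested genes of PI3K, AKT and FOXO signaling, out of 26 listed and 23 with a probe set, 6 were higher in TZL (33.3%) and 1 in DLBCL. PIK3IP1, an inhibitor of the kinase, differed by -2.46, the leukocyte kinase PIK3CD by -1.67 and the regulatory subunit PIK3R1 by -1.46, and SESN1, a stress sensor, was the member higher in DLBCL (1.64), though not without Chieftain, Thunder and Fire.

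Interferon response genes varied widely within both kinds. Of 39 listed, 30 have a probe set, 27 were tested, 6 passed as higher in TZL (22.2%) and 0 as higher in DLBCL, with a median of -0.79, or -0.53 without Niki. ISG20, an exonuclease, was 5.49, 6.69 and 8.01 in DLBCL and 9.90, 10.60 and 10.85 in TZL (-3.75, SE 0.42, adjusted p = 6.3e-05), GBP5, a guanylate-binding protein, differed by -3.24, MX2 by -3.12 and the transcription factor IRF1 by -1.64. The mean over the 27 genes ran from 7.15 (Benson) to 9.57 (Chieftain) in DLBCL and from 8.78 (Rose) to 10.74 (Niki) in TZL, so the groups overlapped.

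MHC class II genes, which present antigen to helper T cells, gave 0 passing members of 13 tested by limma, out of 21 listed, and 1 of the 13 had an unadjusted p under 0.05, on the TZL side. CD74, the invariant chain, was 13.29, 13.63 and 14.04 in DLBCL and 13.33, 13.80 and 14.08 in TZL (-0.10, SE 0.19), and DLA-DRA was 13.44, 13.49 and 13.66 against 13.18, 13.57 and 13.66 (0.03, SE 0.15), while the cultured cells read 3.83 to 7.03 and 3.38 to 7.57. One of 2 further tested CD74 probe sets passed as higher in TZL (-1.29, adjusted p = 0.0337). Of 14 tested housekeeping genes, out of 17 listed, 1 passed. It was B2M, the light chain of MHC class I (-0.50, adjusted p = 0.0365), which did not pass on leaving out any 1 of 7 arrays (Benson, Sally, Snuggles, Newman, Niki, Rose or Shilo) or Chieftain, Thunder and Fire together. Its second probe set did not pass (-0.34).

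Metabolic lists gave fewer calls. Respiratory chain subunits passed as higher in DLBCL for 5 of 28 tested (17.9%), out of 36 listed, and all 28 differences lay above 0 (0.14 to 1.13, median 0.47). ATP5MC1 differed by 1.13, NDUFB6 by 0.92, CYC1 by 0.85 and NDUFS3 by 0.80, while 1 of 2 further tested NDUFB6 probe sets gave -0.39 and did not pass. The count was 12 without Rose, 3 without Cooper, Kaycee, Snuggles, Niki, Shilo or Fire, and 11 with the actin signal as a covariate, and CYC1 was among the calls lost on leaving out any 1 of those 6, and on leaving out Chieftain, Thunder and Fire. In glycolysis 1 of 21 tested genes was higher in DLBCL (4.76%) and 2 in TZL (9.52%), out of 27 listed. The first was the liver-type phosphofructokinase PFKL (1.42), and the others the aldolase ALDOC and the enolase ENO2 (-1.86), the last not without Chieftain, Thunder and Fire. ALDOC was 7.47, 8.03 and 8.18 in DLBCL and 10.71, 11.28 and 12.16 in TZL (-3.39, SE 0.26, adjusted p = 2.84e-06), with no overlap. In cholesterol and fatty acid synthesis 1 of 21 tested was higher in DLBCL, the carboxylase ACACA (1.08), and 1 in TZL, the elongase ELOVL5 (-1.02), which passed only in the fits that left out Snuggles or Fire. The second tested probe set of ELOVL5 did not pass (-0.81).

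Markers of other cells in the node were read beside the tumor genes. Of 20 tested stromal genes, out of 29 listed and 28 with a probe set, 5 were higher in TZL (25%) and 0 in DLBCL. CCL19, a chemokine that fibroblastic reticular cells make in the T zone to draw cells with CCR7, was 5.96, 6.30 and 6.62 in DLBCL and 8.33, 10.08 and 12.38 in TZL (-3.94, SE 0.59, adjusted p = 0.000502). CCL21, the other ligand of CCR7, was 5.93, 6.08 and 7.42 against 6.11, 10.06 and 12.85 (-3.54, adjusted p = 0.0122), with Rose (6.11) at the DLBCL level. S100A4 differed by -3.80 and TIMP1 by -2.43, the latter not without Chieftain, Thunder and Fire. Collagens, which define fibroblasts, did not pass. COL1A1 was 12.13 on Snuggles and 8.96 on Shilo, and no more than 7.39 on the other 10 arrays, where the cultured cells read 11.99 to 13.37. COL1A2 was likewise highest on Snuggles (11.65), as were COL3A1 (9.91) and DCN (10.77). The mean over the 20 stromal genes was 6.09 to 8.34 in DLBCL and 6.86 to 8.99 in TZL, so the kinds overlapped. The part of stromal cells in the differences of CCL19, CCL21, S100A4 and TIMP1 was not tested.

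Other cell types gave few calls. Of 21 tested myeloid markers, out of 37 listed, 2 were higher in DLBCL (9.52%) and 2 in TZL (9.52%). The defining markers CD14, CD68 and CSF1R did not pass (-0.13, 0.29 and -0.65) and CD163 lay below the filter. TLR4 (1.52) did not pass without Cooper, and TLR2 (1.06, adjusted p = 0.0498) passed only in the fits that left out Benson or Thunder and in 1 of 3 tested probe sets, while FLT3 (-1.38) and MARCO (-1.28) were higher in TZL. Of 7 tested endothelial genes, out of 22 listed, 1 passed as higher in DLBCL (14.3%, against 10.1% of all genes). It was ECSCR (1.11), which did not pass on leaving out any 1 of 8 arrays (Cooper, Snuggles or any TZL array). KDR and PECAM1 did not pass, and CDH5 and VWF lay below the filter. In the follicular dendritic list, 2 of 7 tested genes were higher in TZL (28.6%, against 9.53% of all genes), out of 11 listed. They were VCAM1 (-2.33) and SERPINE2 (-1.87). VCAM1 did not pass in a fit of all 34 arrays (adjusted p = 0.0829), and SERPINE2 not without Cooper, Sally, Kaycee, Niki, Rose or Thunder. Without Chieftain, Thunder and Fire, neither TLR4, TLR2, MARCO, ECSCR nor SERPINE2 passed. Of 4 tested erythroid and platelet genes, out of 16 listed, 1 was higher in TZL (25%), GYPC (-1.27).

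**Figure D5:**
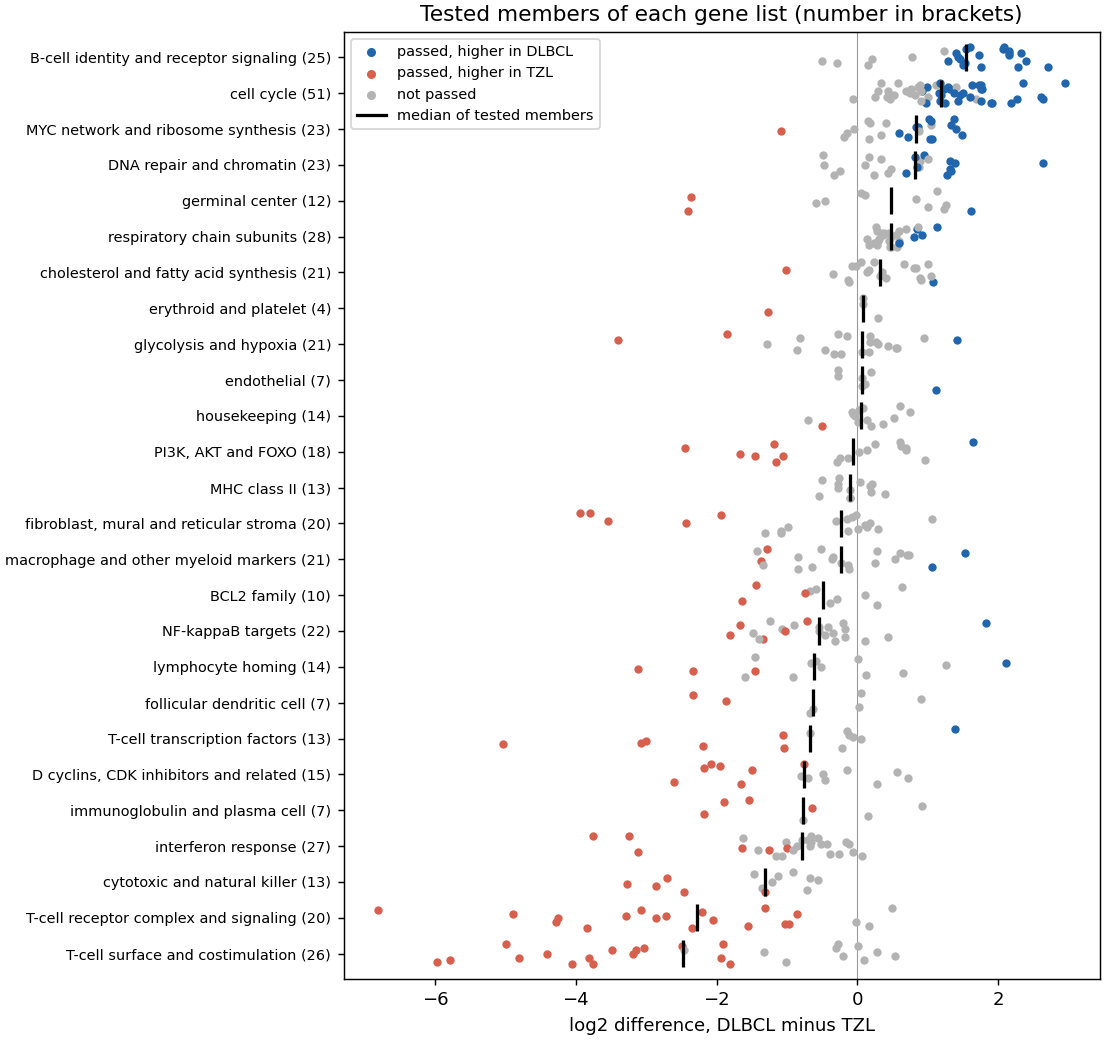
Log2 difference, DLBCL minus TZL (x axis), of every tested member of 26 gene lists (rows, number tested in brackets), colored by whether the gene passed and in which direction, with the list median as a black bar. Medians run from -2.47 for T-cell surface genes to 1.54 for B-cell genes.

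The widest differences, whether or not the gene was listed, were taken as the 12 largest in each direction among genes that passed. On the DLBCL side the glycogen phosphorylase PYGL came first, 9.42, 10.06 and 10.63 in DLBCL and 4.28, 5.37 and 9.64 in TZL (4.09, SE 0.72, adjusted p = 0.00158), where Thunder (9.64) lay inside the DLBCL range. The amino acid transporter family member SLC38A11 was 6.71, 8.98 and 10.60 against 3.49, 4.46 and 6.63 (3.98) and the ion channel subunit ASIC5 6.77, 8.28 and 9.52 against 3.52, 3.99 and 5.48 (3.87). KLHL14 (3.49), the transporter ABCA5 (3.34), the kynureninase KYNU (3.19), the transcription factor TFAP2B (3.16), PHEX (3.13) and SLC9B1 (3.02) followed with no overlap, and FBN1 (3.16), L3HYPDH (3.10) and LOC477353 (3.09) with overlap. FBN1, the microfibril protein fibrillin, read 5.87 on Kaycee, inside the TZL range of 4.90 to 6.83, and 8.90 to 10.80 on the other DLBCL arrays, and its other tested probe set did not pass.

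On the TZL side 7 of the 12 are members of the T-cell lists given above (TRAT1, CD52, CD40LG, LEF1, CD28, PRKCQ and CD27). CD52 among them is a protein of lymphocytes in general. The others are the protease inhibitor CSTA, which was 3.25, 3.70 and 5.54 in DLBCL and 5.89, 9.81 and 11.80 in TZL (-5.18, SE 0.86, adjusted p = 0.00108), the calcium pump ATP2B4 (-4.92), the T-cell growth factor IL2, and 2 antigen receptor gene segments. IL2 was 2.79, 3.23 and 3.56 in DLBCL, close to the 2.55 to 2.93 of the cultured cells, and 5.99, 8.02 and 11.01 in TZL (-4.84, SE 0.61, adjusted p = 0.000155), with Shilo highest. The segments LOC612173 and LOC609053, listed in the gene table as a V segment and a C region, differed by -5.08 and -5.11. Rose was the lowest TZL array for CSTA (5.89), IL2 (5.99) and both segments (6.34 and 6.0), and for LOC609053 it lay below Chieftain (7.93). Such segments belong to families of near-identical copies, so their probe sets may read more than 1 gene.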

How the data were processed

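RNA of the 12 lymphomas was hybridized to Affymetrix Canine_2 arrays, 1 array for each dog. The deposited values are log2 signals that the authors made with RMA (affy, per the submitters' processing notes). Versions, and whether all 34 arrays were normalized in 1 run, were not given in the sources used here. The study describes 1 sample hybridized to 2 chips, and the labels do not mark it; no pair of the 12 arrays held identical values. Groups were taken from the tumor type labels and sexes from the study's list of dogs.

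Of 43035 probe sets, 175 controls were left out. The low-value filter kept a probe set whose signal exceeded the array's own median on 6 or more of the 12 arrays. Differences were tested with limma 3.58.1 in R 4.3.3 (lmFit and eBayes, two-sided), Benjamini-Hochberg adjusted over 21763 probe sets at 0.05, and with an exact permutation test for single genes. The script was tested on simulated data. Gene names came from the platform annotation, in which 29254 probe sets have 1 symbol, 439 several and 13167 none; 27680 of the first matched the RefSeq gene table. Probe sets with several symbols or none entered the counts of probe sets only.

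The comparison, the 26 gene lists and the tests were chosen with earlier results of these data known. The genes named are those marked to be named in the lists, up to 4 further members of each list with the largest differences among those that passed, and the 12 largest differences in each direction. Alternatives changed the filter, the variance model, the scaling, the probe sets, the samples and the covariates. The fit without the 3 arrays of highest actin 3′ minus 5′ signal was chosen after seeing the data.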

Additional observations from a re-analysis of the deposited data

Results flagged for a closer look

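Among 302 groups of 6 values, those of the named genes in each kind, 19 (6.29%) held an array whose gap to the nearest of the others was larger than Dixon's 95% limit for 6 values, as a share of their whole range. Chance gives about 5%.

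Chieftain was the highest DLBCL array for 5 of these genes. It read 7.99 for CD7 (next 6.64), 7.01 for TOX (next 4.32), 4.5 for TCF7 (next 3.99), 7.42 for CCL21 (next 6.35) and 8.30 for ICAM1 (next 7.21). The first 3 are T-cell genes and the other 2 are a T-zone chemokine and an adhesion protein. Snuggles was the highest DLBCL array for 3 fibroblast genes, COL1A1 at 12.13 (next 5.79), COL1A2 at 11.65 (next 6.42) and DCN at 10.77 (next 6.80).

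Rose stood apart from the other TZL arrays for 4 genes. It was lowest for CD5 (8.51, next 10.53) and CD27 (10.24, next 11.27) and highest for SATB1 (11.22, next 9.57) and BRCA2 (8.29, next 7.33). Kaycee was the lowest DLBCL array for BCL6 (5.63, next 7.64) and for the myeloid markers CD14 (6.32, next 7.0) and CD68 (6.21, next 7.87).

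The other 4 were single genes. Thunder was highest in TZL for ACACA (7.48, next 6.57), Newman lowest in TZL for ITGB7 (12.31, next 12.93), Cooper highest in DLBCL for NME1 (12.11, next 11.49) and Sally lowest in DLBCL for PHEX (6.08, next 7.64).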

How the results depend on the processing

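No named gene that passed changed direction under any alternative. In the fit of all 34 arrays, which keeps each difference and changes its variance, 9 named calls were lost and 5 were gained. The lost calls were those of CD3D, CD3G, BCL2A1, VCAM1, TOP2A, CDK1, FANCI, B2M and TLR2. With array weights 2 named calls were lost, CTSW and PRKDC, and 5 were gained. In place of 4018 probe sets, 2345 passed (1147 higher in DLBCL, 1198 in TZL) when those that can match several transcripts were left out, so that fewer were tested, 553 (143 and 410) at an adjusted p of 0.001 and 2624 (1224 and 1400) when a difference of at least 1 log2 unit was also required. Array weights gave 3132 higher in DLBCL. Males alone gave 1196 (443 and 753) and females alone 354 (87 and 267), with fewer arrays. Leaving out each array in turn gave 2929 (without Shilo) to 4440 (without Chieftain), 1352 to 2280 higher in DLBCL and 1577 to 2293 in TZL. The other alternatives stayed within 1.5 times the count, from 3265 with an ordinary t statistic to 5919 with array weights.

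Among the list counts, leaving out 1 array gave 19 to 43 cell cycle genes higher in DLBCL, 3 to 5 NF-kappaB targets higher in TZL, 3 to 12 respiratory chain subunits and 5 to 11 DNA repair genes higher in DLBCL. Without Chieftain, Thunder and Fire these were 13 cell cycle and 6 DNA repair genes, and 2 plasma cell genes were higher in TZL. With the actin signal as a covariate 11 respiratory chain subunits passed. The cause of each was not tested. Of 118 named genes that passed, 102 passed whichever array was left out, and 20 did not pass without Chieftain, Thunder and Fire. An ordinary t statistic lost 17 named calls, MX2, ICAM1 and PRDM1 among them, and dropping the filter lost 11. The spike control signal as a covariate lost 9, centering arrays on their medians 7 and sex as a covariate 6. The median of the germinal center list was 0.47, and -0.02 with no filter. The medians of the PI3K, endothelial, erythroid and glycolysis lists, between -0.06 and 0.09, also changed sign under an alternative. The sex of the dog gave no interaction at the adjusted threshold by limma (0 probe sets, 444 at an unadjusted p under 0.05). No paired analysis was possible because the replicate numbers only name different dogs. Signal over background could not be judged by probe set, since the values hold no detection call.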

Other observations

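Gene segments of antigen receptors were outside the lists, and they were looked at after the values were seen. The gene table marks 16 genes on 44 probe sets as V segments or C regions without giving the receptor chain. Of 26 probe sets tested, 13, from 7 genes, passed as higher in TZL and 0 as higher in DLBCL by limma. Over all probe sets tested the shares were 9.32% and 9.14%. Several of the 26 belong to the same gene, so they are not separate results. A probe set of the C region LOC480788 was 13.79 to 14.25 on all 6 TZL arrays and 8.54 to 12 on the DLBCL arrays, with Chieftain highest (-3.82). A probe set of another C region, LOC608238, was near the top of the scale on every array (12.78 to 14.63) and did not pass.

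Other segments differed from dog to dog within TZL. LOC609053 was 13.29 on Shilo, 12.94 on Newman and 12.31 on Fire, 9.28 and 9.31 on Niki and Thunder, and 6.0 on Rose. LOC607750, a V segment, was highest on Rose (12.38), with the other TZL arrays between 6.83 and 8.85. Among the DLBCL arrays, a probe set of the V segment LOC486377 was 13.28 on Snuggles and 4.43 to 6.16 on the other 5. Probe sets of such segments can take up RNA of related segments, so these values name the probe set's gene and not a proven source.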
